A study of Mus musculus with 6 samples.

Results

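Cell cycle and DNA replication genes were followed in mature medullary thymic epithelial cells (mTEChi), isolated by cell sorting from NOD mice that were 4.5 weeks old and labelled either Aire-/- or Aire+/+. The set was a list of 34 gene symbols, from the replicative helicase to the proteins of the mitotic spindle, and 33 of them were rows of the count table, which held 15643 genes. Cdk1 was not analysed here. The comparison was between 3 libraries labelled Aire-/- (numbers 746, 748 and 749) and 3 libraries labelled Aire+/+ (numbers 745, 750 and 753), all of NOD background and the same age and without any treatment named in the labels. The labels give neither the design of the Aire allele nor whether a library came from 1 animal or from several, so the p-values reflect library-to-library spread, which may be technical in part. Libraries were made by MARS-seq, in which each captured transcript 3′ end carries a unique molecular identifier (UMI), so that a count is a number of captured molecules.

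Dividing cells copy their DNA once in S phase and part the copies in mitosis, and the genes of both phases are switched on in turn. The genes of S phase supply the helicase, the sliding clamp and the nucleotides, and those of G2 and mitosis supply the cyclins, kinases, motors and centromere proteins that condense and separate chromosomes. In the thymic medulla, Aire-expressing cells are mostly regarded as having left the cycle, and dividing cells are found among their immediate precursors. In a bulk library of sorted cells, fewer cycling cells and less RNA of these genes per cycling cell cannot be told apart.

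Totals ran from 1014581 to 1960802 UMIs in the libraries labelled Aire-/- and from 2736932 to 2887321 UMIs in those labelled Aire+/+. Aire itself had 4772, 8298 and 8372 UMIs in the libraries labelled Aire-/- and 6290, 6783 and 7290 UMIs in the deeper libraries labelled Aire+/+. Per scaled library its level was 4865 ± 336 counts-per-million (CPM) in the libraries labelled Aire-/- and 2268 ± 194 CPM in those labelled Aire+/+ (SD, n = 3 each). Its log2 fold change of 1.10 goes against the label. A 3′ tag outside the deleted part says nothing about the genotype, and every direction given here rests on the labels. Of the markers that define mTEChi (Aire, Cd80, Cd86, Cd40, 2 class II chains, Cd74, Epcam, Fezf2 and Tnfrsf11a) all 10 were detected, and 6 of them, including Aire, were higher in the libraries labelled Aire-/- at an adjusted p up to 0.05. That is 60%, beside 8.59% of all tested genes called higher. Library 746 had 28 Gapdh UMIs and library 753 had 90, against 2245 to 4166 in the other 4, and the counts of called genes are also given without both of them.

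Most cell cycle genes were not distinguishable between the genotypes, and 3 were lower in the libraries labelled Aire-/-. Rrm2, which encodes the small subunit of ribonucleotide reductase, fell by 0.92 on the log2 scale, Ccnb1 (cyclin B1) fell by 0.81 and Kif23, a kinesin of the central spindle, fell by 0.71. Of the 33 genes, 28 had enough UMIs to pass the filter on low counts. By edgeR's quasi-likelihood test with Benjamini-Hochberg adjustment over all 11956 tested genes, 3 of these 28 were lower and 0 were higher at an adjusted p up to 0.05. That is 10.7% of the tested cell cycle genes, beside 12.1% of all tested genes called lower and 8.59% called higher. The share called lower was thus close to that of the whole transcriptome, and the count is not a result about cell cycle genes. At an unadjusted p under 0.05 there were 6 lower genes (21.4%, against 17.3% of all tested genes) and 0 higher ones (14.2% of all tested genes).

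The direction leaned to lower values without reaching the threshold in most genes. The log2 fold change was below 0 for 21 of the 28 genes (75%, against 51.9% of all tested genes), and its median was -0.28, against -0.02 over all tested genes. The median of the cell cycle genes was -0.14 without library 749 and -0.44 without library 748. The 3 libraries labelled Aire-/- all lay below the 3 labelled Aire+/+ for 9 genes (32.1%, against 20.2% of all tested genes), and all above them for 1 gene, Pcna (16.3% of all tested genes did so). The other 18 overlapped. Scaling by library totals alone, without edgeR's TMM factors, moved the median of all tested genes to -0.23. That of the cell cycle genes moved to -0.48. Of the 28, 6 were then lower, and lower calls over all tested genes rose as well, from 1451 to 2083. Without library 753, and without libraries 746 and 753 together, 1 gene, Rrm2, was lower. Lower calls over all tested genes were then 1099 and 1179.

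**Figure D1:**
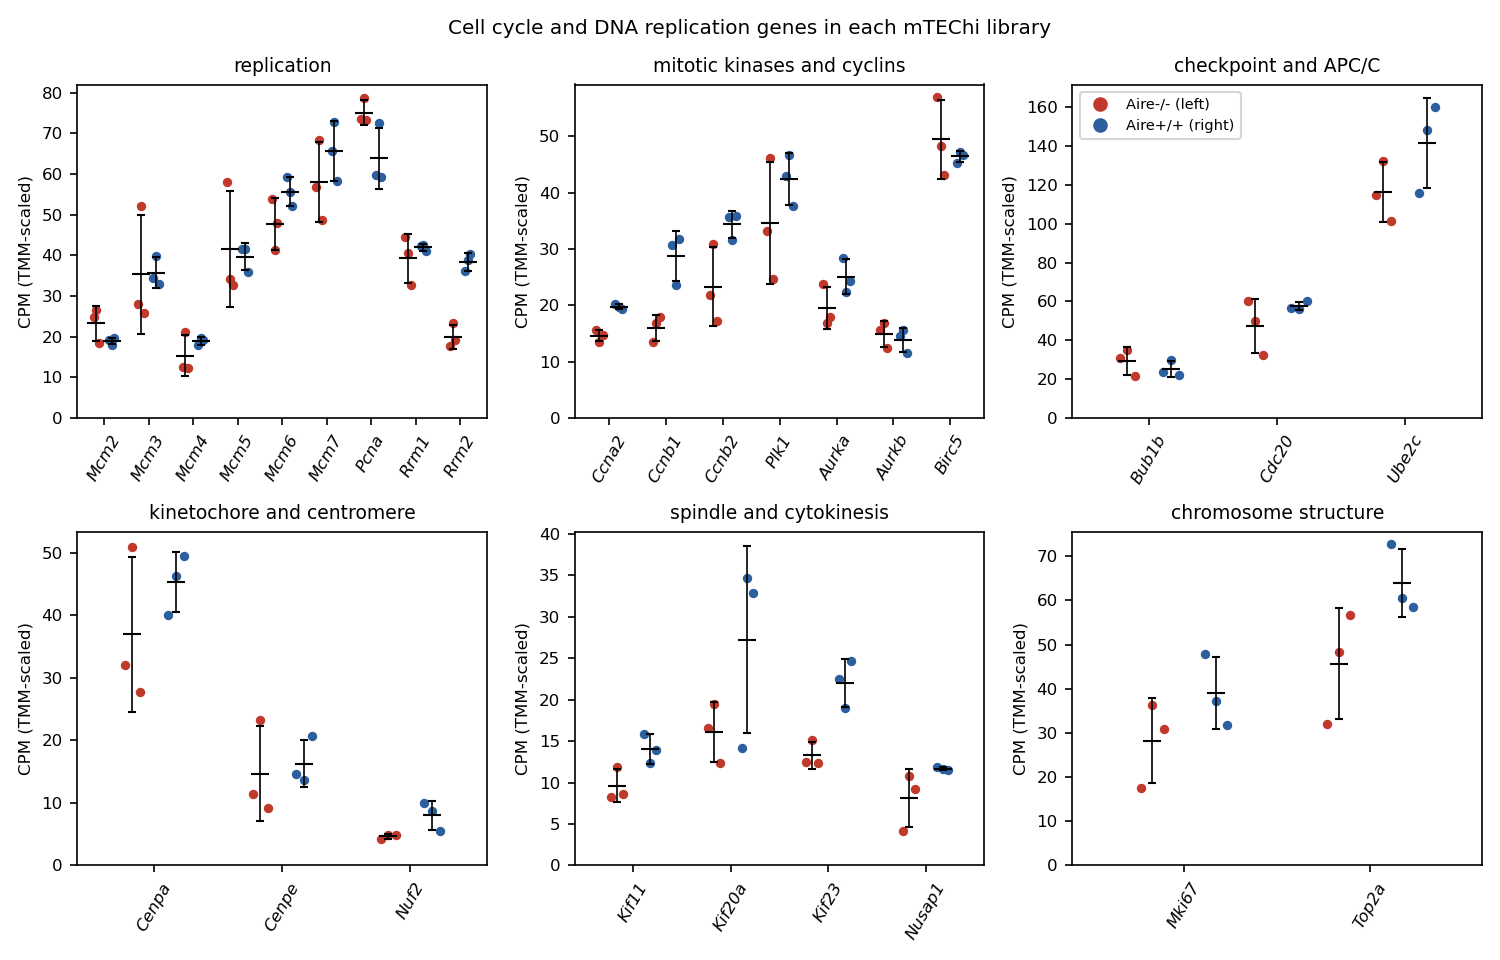
Level of each of the 28 tested genes in every library, as counts-per-million (CPM) scaled by TMM factors (y axis), by functional group. Red points are the 3 libraries labelled Aire-/- and blue points the 3 labelled Aire+/+, and black bars are mean ± SD. The groups are apart for Rrm2, Ccnb1 and Kif23 and overlap for most genes of the replication panel.

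Rrm2 gave the firmest difference. Rrm2 had 17, 43 and 31 UMIs in the libraries labelled Aire-/- and 109, 117 and 119 UMIs in those labelled Aire+/+. As CPM on TMM-scaled library sizes it was at 20.0 ± 2.97 in the libraries labelled Aire-/- and 38.4 ± 2.17 in those labelled Aire+/+ (SD, n = 3 each), with no overlap. The log2 fold change was -0.92 with a standard error of 0.19 and a 95% interval of -1.33 to -0.50 (edgeR adjusted p = 0.00364). The gene lies on chromosome 12, positions 24708241 to 24714146 (mm10, plus strand). It remained lower at an adjusted p up to 0.05 under all 13 alternatives of scaling, filter, test and libraries, with adjusted p between 0.000871 and 0.0396. In the authors' deposited table it had a log2 fold change of 0.91, given there as Aire+/+ over Aire-/-, with an adjusted p of 0.0124. That table marks 0 of the 33 genes as passing the authors' selection, whose criteria it does not state.

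Rrm1, the large subunit of the same enzyme, was not called. Rrm1 had 43, 75 and 53 UMIs in the libraries labelled Aire-/- and 128, 128 and 121 in those labelled Aire+/+, and its log2 fold change was -0.11 with a 95% interval of -0.48 to 0.26 (edgeR adjusted p = 0.708). The ratio of Rrm2 to Rrm1 UMIs within a library does not depend on the scaling. It was 0.395, 0.573 and 0.585 in the libraries labelled Aire-/- and 0.852, 0.914 and 0.983 in those labelled Aire+/+. All 3 ratios of Aire-/- lay below the 3 of Aire+/+. This ratio was formed after the values were seen and is given as a description. The ratios of Ccnb1 to Ccnb2, Aurka to Aurkb, Bub1b to Cdc20 and Kif20a to Kif23 were formed as well. Each of them overlapped between the genotypes. Tyms, thymidylate synthase, which makes thymidine nucleotides, was near the floor with 1, 1 and 3 UMIs in the libraries labelled Aire-/- and 3, 8 and 4 in those labelled Aire+/+, and it was below the filter.

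None of the 6 subunits of the replicative helicase passed the test. Mcm2 to Mcm7 form the ring that is loaded at replication origins and unwinds the DNA. Mcm2 was at 23.3 ± 4.26 CPM in the libraries labelled Aire-/- and 18.9 ± 0.851 CPM in those labelled Aire+/+, with the highest fold change of the tested set (log2 0.29, 95% interval -0.18 to 0.77, edgeR adjusted p = 0.391). Mcm6 was at 47.7 ± 6.31 CPM in the libraries labelled Aire-/- and 55.6 ± 3.53 CPM in those labelled Aire+/+ (log2 -0.24, interval -0.58 to 0.10, edgeR adjusted p = 0.336). The log2 fold changes of Mcm3, Mcm4, Mcm5 and Mcm7 were 0.02, -0.27, 0.02 and -0.17, with edgeR adjusted p of 0.527 and above. The 95% intervals of Mcm4 (-0.83 to 0.30), Mcm6 and Mcm7 (-0.54 to 0.19) reach well below 0, so decreases of that size could not be told from no change.

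The helicase subunits did not all move together among the libraries labelled Aire-/-. Mcm2, Mcm3, Mcm4 and Mcm7 were highest in library 748, and Mcm5 and Mcm6 were highest in library 746. Mcm3 was at 27.9, 52.1 and 25.9 CPM in libraries 746, 748 and 749, and Mcm5 at 58.0, 34.2 and 32.7 CPM. Library 748 was thus the high one for Mcm3 and library 746 for Mcm5, while the libraries labelled Aire+/+ had 34.4, 39.96 and 32.8 CPM of Mcm3 and 41.7, 41.6 and 35.9 CPM of Mcm5. Without library 748 the log2 fold change of Mcm3 was -0.41, and without library 746 that of Mcm5 was -0.24. Neither was called.

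Pcna, the sliding clamp that holds the polymerases on DNA, was the 1 gene whose libraries labelled Aire-/- all lay above the others. Pcna was at 73.5, 78.6 and 73.3 CPM in the libraries labelled Aire-/- and at 59.8, 72.6 and 59.2 CPM in those labelled Aire+/+. The gap was narrow, since library 750 stood just below library 749. The log2 fold change of 0.24 (95% interval -0.08 to 0.56) was not called (edgeR adjusted p = 0.302).

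Among the cyclins and kinases that drive entry into mitosis, Ccnb1 was lower in the libraries labelled Aire-/-. Ccnb1, the partner of the mitotic kinase, had 13, 31 and 29 UMIs in these libraries and 93, 71 and 94 UMIs in those labelled Aire+/+. Its level was 16.0 ± 2.31 CPM in the libraries labelled Aire-/- and 28.7 ± 4.44 CPM in those labelled Aire+/+, with no overlap (log2 fold change -0.81, standard error 0.22, 95% interval -1.29 to -0.33, edgeR adjusted p = 0.0192). The gene lies on chromosome 13, positions 100778650 to 100786570 (mm10, minus strand). The call held under 8 of 13 alternatives. It was lost by DESeq2 (adjusted p = 0.0528) and in edgeR without library 748 (adjusted p = 0.0551), without library 745 (0.0761), without library 753 (0.0879) and without 746 and 753 together (0.145), with a log2 fold change between -1.02 and -0.65 throughout. The authors' deposited table gave it an adjusted p of 0.0656.

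Ccnb2 and Ccna2 had libraries apart but did not pass the threshold. Ccnb2, cyclin B2, was at 21.7, 30.9 and 17.3 CPM in the libraries labelled Aire-/- and at 35.7, 31.6 and 35.9 CPM in those labelled Aire+/+ (log2 fold change -0.54, 95% interval -1.02 to -0.06, edgeR adjusted p = 0.109). Library 748 nearly reached library 750, and the value hung on single libraries: the log2 fold change was -0.84 without 748 (edgeR adjusted p = 0.0298) and -0.33 without 749 (edgeR adjusted p = 0.299). Ccna2, cyclin A2, which acts in S phase and G2, was at 14.6 ± 0.994 CPM in the libraries labelled Aire-/- and 19.7 ± 0.44 CPM in those labelled Aire+/+ (log2 -0.44, interval -0.93 to 0.04, edgeR adjusted p = 0.2).

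The mitotic kinases Aurka, Plk1 and Aurkb were not called, and neither was Birc5. Aurka, which acts at spindle poles, was at 19.5 ± 3.77 CPM in the libraries labelled Aire-/- and 25.0 ± 3.11 CPM in those labelled Aire+/+ (log2 -0.40), and Plk1, which acts at centrosomes and kinetochores, had a log2 fold change of -0.28. Aurkb and Birc5 (survivin), both of the complex that corrects chromosome attachment, were at log2 0.10 and 0.07, with edgeR adjusted p of 0.844 and 0.799. Birc5 had an interval of -0.27 to 0.42. The direction of both turned below 0 when libraries were scaled by their totals alone, as that of Mcm3 and Mcm5 did.

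Genes of the spindle and of cell separation had log2 fold changes below 0 in 4 of 4 tested cases, against 51.9% of all tested genes. Of these, Kif23 was called (25%, against 12.1% of all tested genes called lower), and the group holds only 4 tested genes. Kif23 bundles the microtubules between separating chromosomes. It had 12, 28 and 20 UMIs in the libraries labelled Aire-/- and 68, 57 and 73 UMIs in those labelled Aire+/+. Its level was 13.3 ± 1.62 CPM in the libraries labelled Aire-/- and 22.1 ± 2.89 CPM in those labelled Aire+/+, with no overlap. The log2 fold change was -0.71 with a standard error of 0.24 and a 95% interval of -1.22 to -0.20, and the edgeR adjusted p of 0.0498 was at the edge of the threshold. Kif23 lies on chromosome 9, positions 61915905 to 61946774 (mm10, minus strand). Its call held in 2 of 13 alternatives, both of them other scalings, and was lost without any 1 library (edgeR adjusted p of 0.0819 without 746, 0.0713 without 748, 0.105 without 749, 0.135 without 745, 0.0586 without 750 and 0.181 without 753), with the log2 fold change between -0.91 and -0.59.

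Kif20a, another motor of the central spindle, depended on single libraries. It was at 16.6, 19.5 and 12.3 CPM in the libraries labelled Aire-/- and at 14.2, 34.6 and 32.8 CPM in those labelled Aire+/+. Library 745 stood among the libraries of the other genotype, and the log2 fold change of -0.75 was not called (edgeR adjusted p = 0.146). Without 745 it was -1.06 (edgeR adjusted p = 0.0138), and without 750 it was -0.54 (edgeR adjusted p = 0.382). The last 300 nt of Kif20a coincide with an exon of Cdc23 on the opposite strand, and since the strand setting of the counting is not given in the sources used here, its UMIs cannot be assigned to Kif20a with certainty. Kif11, which pushes spindle poles apart, was at 8.28, 11.9 and 8.63 CPM in the libraries labelled Aire-/- and 15.9, 12.3 and 13.9 CPM in those labelled Aire+/+ (log2 -0.51, edgeR adjusted p = 0.247). Nusap1, a microtubule-bundling protein, was at 4.14, 10.8 and 9.24 CPM in the libraries labelled Aire-/- and 11.9, 11.7 and 11.5 CPM in those labelled Aire+/+ (log2 -0.44, edgeR adjusted p = 0.393). For both genes the genotypes did not overlap, but library 748 lay within 1 CPM of the lowest library labelled Aire+/+. Tpx2, a spindle assembly factor, had 15 UMIs over the libraries labelled Aire-/- and 30 over those labelled Aire+/+ and was below the filter.

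Kinetochore genes and the regulators of anaphase were not called. Nuf2, part of the complex that binds microtubules to the kinetochore, had 4, 9 and 8 UMIs in the libraries labelled Aire-/- and 30, 26 and 16 UMIs in those labelled Aire+/+ (log2 -0.76, 95% interval -1.58 to 0.07, edgeR adjusted p = 0.194). Cenpa, the histone variant that marks centromeres, was at 36.9 ± 12.4 CPM in the libraries labelled Aire-/- and 45.2 ± 4.79 CPM in those labelled Aire+/+. Cenpe, a kinetochore motor, was at 14.6 ± 7.58 CPM in the libraries labelled Aire-/- and 16.3 ± 3.81 CPM in those labelled Aire+/+. Cdc20, which activates the anaphase-promoting complex, and Ube2c, its ubiquitin-conjugating enzyme, had log2 fold changes of -0.31 and -0.28. Bub1b, a spindle checkpoint protein that restrains that complex, was at 0.21 (95% interval -0.28 to 0.69).

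Genes of chromosome structure included the usual marker of cycling cells. Mki67, which encodes Ki-67, had 17, 67 and 50 UMIs in the libraries labelled Aire-/- and 145, 112 and 94 UMIs in those labelled Aire+/+. Its level was 28.2 ± 9.63 CPM in the libraries labelled Aire-/- and 39.0 ± 8.20 CPM in those labelled Aire+/+, and the ranges overlapped, since library 748 at 36.3 CPM lay above library 753 at 31.8 CPM (log2 -0.41, 95% interval -0.93 to 0.11, edgeR adjusted p = 0.274). Top2a, the topoisomerase that untangles sister chromosomes, was at 45.7 ± 12.5 CPM in the libraries labelled Aire-/- and 64.0 ± 7.66 CPM in those labelled Aire+/+, without overlap (log2 -0.45, interval -0.87 to -0.04, edgeR adjusted p = 0.125). The log2 fold change of Top2a was -0.62 without library 749 (edgeR adjusted p = 0.0356) and -0.28 without library 746 (edgeR adjusted p = 0.293).

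**Figure D2:**
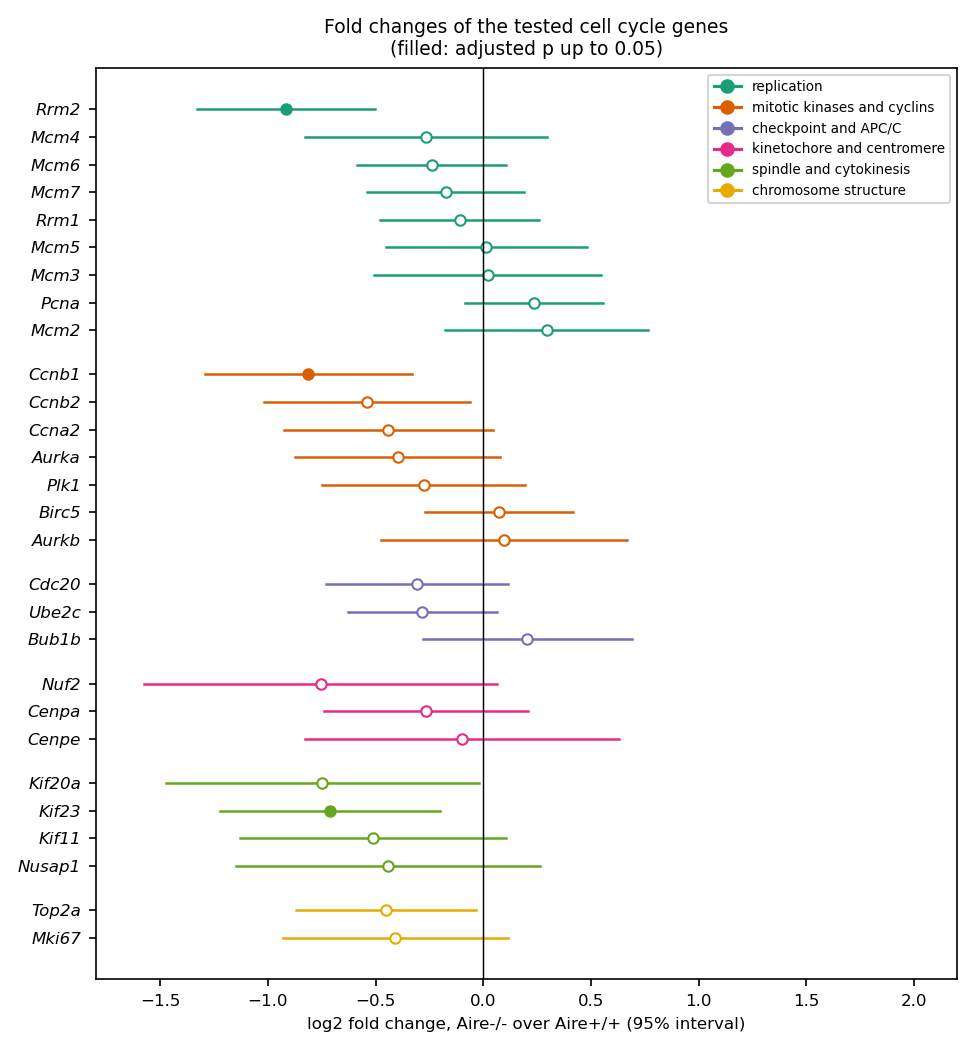
Fold change of each tested gene, Aire-/- over Aire+/+, on the log2 scale (x axis) with its 95% interval, by functional group (y axis). Filled points are called at an adjusted p up to 0.05. Rrm2, Ccnb1 and Kif23 are filled, and 16 of the 19 genes outside the replication group lie left of 0, against 5 of 9 replication genes.

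A further 4 genes were below the filter on low counts, besides Tyms. All 5 were tested with min.count 3 and with no filter, and none of them was called by edgeR there. Bub1, a checkpoint kinase, had 0, 6 and 2 UMIs in the libraries labelled Aire-/- and 15, 5 and 13 in those labelled Aire+/+, a pooled ratio of 0.427 relative to library totals, with an exact 95% counting interval of 0.171 to 0.944. That interval covers counting error only, not the spread between libraries. It rests on plain totals, and whether it stays below 1 with TMM scaling was not tested. Hmgb2, a chromatin protein, had 4 UMIs over the libraries labelled Aire-/- and 12 over those labelled Aire+/+, and Cenpf, a centromere protein, had 5 in the libraries labelled Aire-/- and 13 in those labelled Aire+/+. The ratios of Hmgb2, Cenpf, Tpx2 and Tyms had counting intervals that included 1.

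The 3′ ends were compared with all annotated transcripts, since tags that match several genes can be divided or lost. The last 300 nt of Rrm2, Ccnb1 and Kif23 had no match of at least 80 nt and 90% identity to another gene. Mcm7 matched the processed pseudogene Gm5487 at 98.1% over 161 nt and Cdc20 matched Gm7856 at 90.4% over 250 nt. Ube2c, Cenpf, Mcm5 and Nuf2 carry a stretch shared with 427, 416, 339 and 92 other genes. Tpx2 and Tyms share shorter stretches with 4 genes and 1 gene. The values of these 8 genes are uncertain for that reason. Mcm7 and Cdc20 also lie within 300 nt of an exon of Cops6 and of Elovl1 on the other strand.

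Summed per library relative to plain totals, mitosis genes and S phase genes were both at lower levels in the libraries labelled Aire-/-. The gap was wider for mitosis genes, and with TMM scaling the S phase sums overlapped. The 10 S phase genes (Mcm2 to Mcm7, Pcna, Rrm1, Rrm2 and Tyms) held 353, 364 and 278 CPM of plain library totals in libraries 746, 748 and 749, and 417, 428 and 368 CPM in libraries 745, 750 and 753. The 23 other genes held 503, 599 and 430 CPM of plain totals in the libraries labelled Aire-/- and 744, 732 and 729 CPM in those labelled Aire+/+. The libraries labelled Aire-/- thus differed widely among themselves for the mitosis genes, and those labelled Aire+/+ were close to each other. The mean over libraries labelled Aire-/- was 0.82 of that over libraries labelled Aire+/+ for S phase genes and 0.695 for mitosis genes. With TMM scaling these became 0.937, where the genotypes overlapped, and 0.793, where they did not. The median log2 fold change over all tested genes was -0.23 with library totals and -0.02 with TMM scaling. Plain totals thus place genes at large lower in Aire-/-.

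The ratio of mitosis to S phase UMIs is free of scaling. It was 1.42, 1.65 and 1.54 in the libraries labelled Aire-/- and 1.78, 1.71 and 1.98 in those labelled Aire+/+, without overlap. Library 748 came nearest to the other genotype, and library 750 nearest to it. Without libraries 746 and 753 the mean ratio over libraries labelled Aire-/- was 0.913 of that over libraries labelled Aire+/+, against 0.843 with all 6. The ratio was formed with the results known and carries no test.

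**Figure D3:**
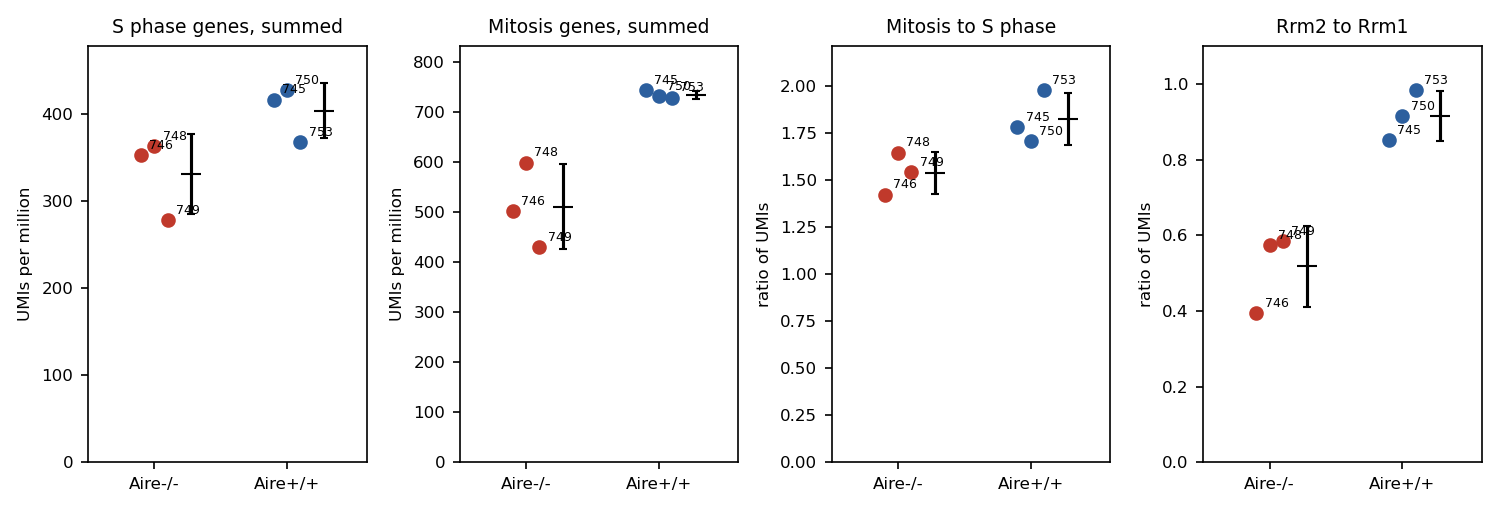
Summed UMIs-per-million of the 10 S phase and the 23 mitosis genes (y axes of the first 2 panels), the ratio of these sums, and the ratio of Rrm2 to Rrm1 UMIs (y axes of the last 2 panels) in each numbered library. Red is Aire-/- and blue is Aire+/+, with mean ± SD in black, and in all 4 panels the 3 red points lie below the 3 blue ones. The sums are relative to plain library totals, and with TMM scaling those of the S phase genes overlap.

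Spread differed between the genotypes as well. Over the 28 tested genes the coefficient of variation of CPM had a median of 20.1% among the libraries labelled Aire-/- and 11.0% among those labelled Aire+/+. It was larger in Aire-/- for 22 genes. The coefficient was not computed over all tested genes, so the wider spread is not shown to be particular to cell cycle genes. Over all genes with enough UMIs, chi-square per degree of freedom was 4.04 to 6.83 between libraries labelled Aire-/-. Between those labelled Aire+/+ it was 3.02 to 3.69. Library 748 was the highest of its genotype for 18 of the 28 genes and library 749 the lowest for 18. Cell cycle genes thus stood higher in 748 than in 749 across most groups of function. The totals of the libraries labelled Aire-/- were the smaller ones, with 1014581 UMIs in 746, and the part of counting error in this spread was not tested.

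Promoter sequences of 4 genes are shown, the 2 with the smallest p among the replication genes (Rrm2 and Pcna) and the 2 among the others (Ccnb1 and Kif23), which include the 3 called genes. Each is 250 bases before to 50 bases after the start of the gene, 5′ to 3′ on the strand of the gene, from RefSeq (GRCm38.p6). Capitals mark CCAAT, read on either strand, which is the box bound by NF-Y, and in Kif23 also TTTGAA, a form of the cell cycle homology region (CHR) through which the MuvB complexes act. The windows are chr12:24708004-24708303 (plus strand) for Rrm2, chr2:132253131-132253430 (minus) for Pcna, chr13:100786437-100786736 (minus) for Ccnb1 and chr9:61946750-61947049 (minus) for Kif23.
Rrm2: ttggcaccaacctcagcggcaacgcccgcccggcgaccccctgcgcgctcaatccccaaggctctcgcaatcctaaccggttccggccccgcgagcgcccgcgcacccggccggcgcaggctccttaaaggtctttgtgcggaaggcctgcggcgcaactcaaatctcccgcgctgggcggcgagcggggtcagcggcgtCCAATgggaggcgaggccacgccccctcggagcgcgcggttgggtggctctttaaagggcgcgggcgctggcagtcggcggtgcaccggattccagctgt
Pcna: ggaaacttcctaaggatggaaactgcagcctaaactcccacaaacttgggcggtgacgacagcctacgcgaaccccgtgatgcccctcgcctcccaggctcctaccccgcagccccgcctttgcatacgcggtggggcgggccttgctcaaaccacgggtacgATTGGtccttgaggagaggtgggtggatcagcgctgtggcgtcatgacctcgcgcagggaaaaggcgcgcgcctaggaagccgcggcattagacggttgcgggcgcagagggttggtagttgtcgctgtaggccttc
Ccnb1: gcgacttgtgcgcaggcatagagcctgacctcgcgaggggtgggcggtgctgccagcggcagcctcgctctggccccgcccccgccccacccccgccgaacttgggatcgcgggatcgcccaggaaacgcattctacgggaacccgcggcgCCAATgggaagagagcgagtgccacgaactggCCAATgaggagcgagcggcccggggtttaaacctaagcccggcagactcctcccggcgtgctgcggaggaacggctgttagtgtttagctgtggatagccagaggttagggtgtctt
Kif23: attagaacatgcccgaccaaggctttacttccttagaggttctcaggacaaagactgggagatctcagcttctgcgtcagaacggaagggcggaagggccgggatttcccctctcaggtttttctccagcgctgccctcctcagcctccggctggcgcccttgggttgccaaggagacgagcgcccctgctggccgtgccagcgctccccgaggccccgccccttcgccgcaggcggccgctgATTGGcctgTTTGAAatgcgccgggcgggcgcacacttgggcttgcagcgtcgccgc

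The called genes share the CCAAT box in this window, and so do most other members. The box was found in 24 of the 28 genes with a promoter in the table (85.7%), against 41.1% of all 27025 genes there. TTTGAA or TTCGAA, on either strand, was found in 14 of 19 mitosis genes (73.7%) and 2 of 9 S phase genes (22.2%), against 21.7% of all genes. An E2F site, searched as TTTCGCGC, TTTGGCGC, TTTCCCGC or TTTGGCGG on either strand, was found in 4 of 9 S phase genes (Mcm3, Mcm5, Mcm6 and Mcm7) and 0 of 19 mitosis genes, against 2.7% of all genes. Of the called genes, Kif23 holds the CHR letters and Ccnb1 and Rrm2 do not in these 300 bases. These are matches of letters only and describe the set, not the difference between genotypes.

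Further genes of the cycle were read from 5 lists of textbook members that share no gene with the set. Among 53 tested G2 and mitosis genes, 9 were lower in the libraries labelled Aire-/- (17%, against 12.1% of all tested genes). In the same list 0 were higher (8.59% of all tested genes). A log2 fold change below 0 was found for 42 (79.2%, against 51.9% of all tested genes). The median was -0.34, against -0.02 over all tested genes. Cdc25c, the phosphatase that activates the mitotic kinase, had 46, 61 and 72 UMIs in the libraries labelled Aire-/- and 247, 247 and 264 UMIs in those labelled Aire+/+, without overlap (log2 -1.04, standard error 0.17, edgeR adjusted p = 0.000593). Ncapg, a condensin subunit, had 6, 6 and 5 UMIs in the libraries labelled Aire-/- and 53, 27 and 63 UMIs in those labelled Aire+/+ (log2 -2.02, edgeR adjusted p = 0.00503), and Pttg1, securin, was at 44.1 ± 8.59 CPM in the libraries labelled Aire-/- and 81.2 ± 18.5 CPM in those labelled Aire+/+ (log2 -0.85, edgeR adjusted p = 0.00763). The spindle proteins Ckap2l and Ckap2 and the checkpoint protein Mad2l1 were lower too, with log2 fold changes of -1.31, -1.36 and -0.73. The count of 9 depended on the libraries: it was 5 without 746, 6 without 748, 5 without 745, 6 without 750, 8 without 749, 4 without 753 and 3 without 746 and 753 together. It was 16 with scaling by library totals alone, 5 by DESeq2 and 6 by limma-voom. Over all tested genes these settings gave 2083, 1216 and 1436 lower calls, against 1451 by edgeR with TMM scaling. Leaving out 1 library gave 1099 to 1899 such calls, and leaving out 746 and 753 together gave 1179. The share of 17% beside 12.1% was computed for edgeR with all 6 libraries only. A count of 1 higher gene was reached without 748 and with no filter.

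Other replication genes gave no call with all 6 libraries. Of 41 tested, 0 were lower and 0 higher by edgeR, against 12.1% and 8.59% of all tested genes. At an unadjusted p under 0.05, 1 was lower and 2 were higher, against 17.3% and 14.2% of all tested genes, and DESeq2 called 0 in either direction. Without library 749, 3 were higher, and 1 was lower without 750, without 753, without 746 and 753 together, and with scaling by library totals alone. The log2 fold change was below 0 for 29 of the 41 (70.7%, against 51.9% of all tested genes), and its median was -0.16. Pole, the catalytic subunit of the leading-strand polymerase, was at -0.84 (edgeR adjusted p = 0.0899), whereas Dnmt1, the maintenance DNA methyltransferase, and Pola2, a subunit of the primase-polymerase complex, were at 0.50 and 0.52 (edgeR adjusted p of 0.11 and 0.116). Their summed level was 1017 to 1103 CPM in the libraries labelled Aire-/- and 1027 to 1116 CPM in those labelled Aire+/+. That of the other G2 and mitosis genes was 1111 to 1293 CPM in the libraries labelled Aire-/- and 1421 to 1519 CPM in those labelled Aire+/+, without overlap. The difference between the lists was not tested.

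Among 25 tested regulators of the step from G1 to S, 1 was lower (4%, against 12.1% of all tested genes) and 2 were higher (8%, against 8.59%). These shares are at or below those of all genes, and the counts are not a result about the list. Without libraries 746 and 753, 0 were lower and 2 higher. Myc, a transcription factor that promotes growth and cycle entry, was at 112, 62.4 and 61.0 CPM in the libraries labelled Aire-/- and 32.1, 36.6 and 31.5 CPM in those labelled Aire+/+ (log2 1.19, edgeR adjusted p = 0.00172), and library 746 held by far the highest value. Tfdp1, the dimer partner of E2F factors, was at 130.2 ± 28.8 CPM in the libraries labelled Aire-/- and 66.9 ± 5.63 CPM in those labelled Aire+/+ (log2 0.94, edgeR adjusted p = 0.00123). E2f7, a repressor of E2F targets, was at 4.78 ± 1.51 CPM in the libraries labelled Aire-/- and 10.4 ± 1.37 CPM in those labelled Aire+/+ (log2 -1.06, edgeR adjusted p = 0.0483). This single lower call was lost with min.count 3, by DESeq2, by limma-voom, without any 1 of libraries 746, 745, 750 and 753, and without 746 and 753 together. Ccnd3, a D-type cyclin, was at log2 0.47 (edgeR adjusted p = 0.0522) and Ccnd2 at -0.25 (0.232).

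A mixed list held CDK inhibitors and genes of growth arrest and the p53 response, including Mdm2. Among its 20 tested genes, 2 were lower (10%, against 12.1% of all tested genes) and 3 were higher (15%, against 8.59%). The count of higher genes was 7 without library 749, 4 without 746, and 2 without 745, 750 or 753, by DESeq2, by limma-voom and with scaling by library totals or DESeq2 size factors. The count of lower genes was 3 without 749 and with library totals. Without 746 and 753 together, 1 was lower and 2 were higher. Cdkn1c, which encodes the CDK inhibitor p57, had 11, 49 and 52 UMIs in the libraries labelled Aire-/- and 242, 296 and 226 UMIs in those labelled Aire+/+ (log2 -1.79, standard error 0.24, edgeR adjusted p = 0.000185). Cdkn2b, the inhibitor p15, was at 52.1 ± 8.25 CPM in the libraries labelled Aire-/- and 88.9 ± 12.5 CPM in those labelled Aire+/+ (log2 -0.76, edgeR adjusted p = 0.00557). The 3 higher genes, Gadd45a, Gadd45g and Btg2, are induced on stress or growth arrest in many cells, with log2 fold changes of 0.73, 0.63 and 0.63, and Btg2 was at the edge of the threshold (edgeR adjusted p = 0.0495). Among 10 checkpoint kinases and their regulators, 0 were called by edgeR or DESeq2, against 12.1% lower and 8.59% higher of all tested genes by edgeR. At an unadjusted p under 0.05, 2 were lower and 1 was higher, against 17.3% and 14.2% of all tested genes. These counts are not a result about the list. At an adjusted p up to 0.05, 2 were lower with library totals, 1 was lower without 749 and 1 was higher without 746. Without 746 and 753 together 0 were called.

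**Figure D4:**
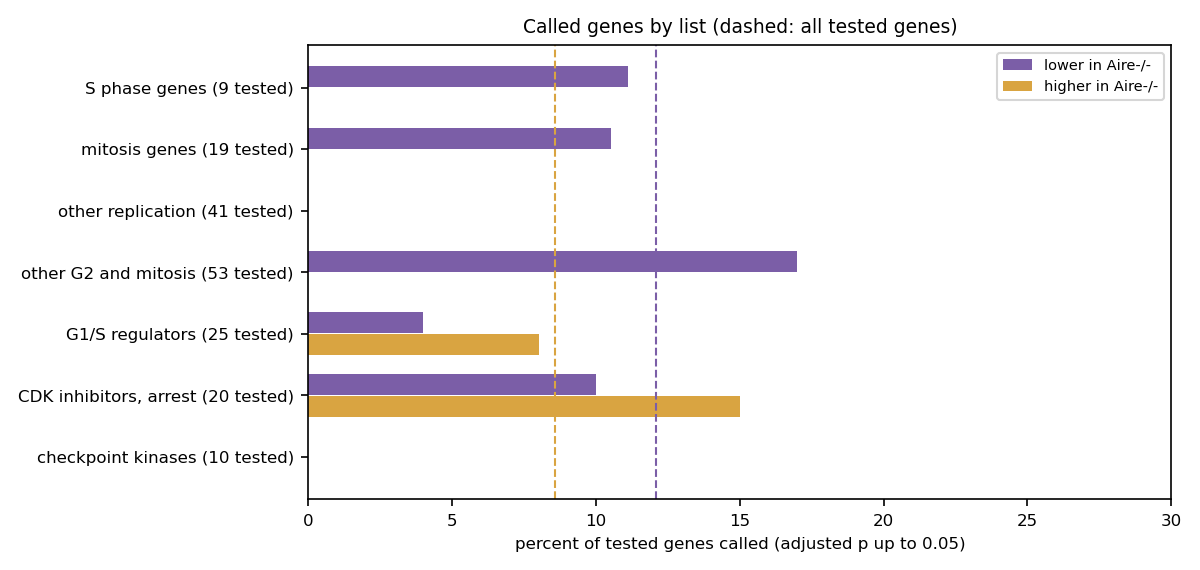
Percent of tested genes called lower or higher in Aire-/- at an adjusted p up to 0.05 (x axis), for the S phase and mitosis genes of the set and the 5 further lists (y axis). Dashed lines give the shares over all tested genes, 12.1% lower and 8.59% higher, and the bars of the set lie close to the line for lower calls.

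Markers of other cells moved between the genotypes in some lists. Of all tested genes, 12.1% were called lower, 8.59% were called higher and 51.9% had a log2 fold change below 0. Thymocytes divide rapidly in the thymus. The table held 15 of 16 thymocyte markers, of which 13 were tested and 1, Tcf7, was called higher (7.69%). Of these 13, 1 had a log2 fold change below 0 (7.69%), and the median was 0.30. Summed levels of the 15 were 276 to 464 CPM in the libraries labelled Aire-/- and 241 to 395 CPM in those labelled Aire+/+. The genotypes overlapped, and no marker of any list that the table held was at 0 in all libraries of a genotype. All 6 cortical epithelial markers were higher (summed 1985 to 2053 CPM in Aire-/- and 790 to 1073 CPM in Aire+/+), and 5 of 6 markers of late keratinocyte-like cells were lower (162 to 361 CPM in Aire-/- and 708 to 775 CPM in Aire+/+). Of B cell markers 1 of 4 tested was higher, of myeloid markers 1 of 7 was lower and 1 higher, and of stromal markers 1 of 4 was higher. Of dissociation stress genes 0 of 7 were called by edgeR (3 higher at an unadjusted p under 0.05, against 14.2% of all tested genes). Log2 fold changes were below 0 for 2 of 4 B cell, 1 of 7 myeloid, 0 of 4 stromal and 1 of 7 stress genes. Summed stromal markers were at 342, 111 and 61.6 CPM in libraries 746, 748 and 749. They were at 51.6 to 70.7 CPM in the libraries labelled Aire+/+. Summed myeloid markers were at 1546, 1534 and 2523 CPM in libraries 746, 748 and 749. In the libraries labelled Aire+/+ they were at 1280 to 1428 CPM, without overlap. None of the 6 tested markers of immature medullary epithelium was called by edgeR (0 also at an unadjusted p under 0.05). Library 749, where cell cycle genes were lowest, had 1588 CPM of them, against 3362 CPM in 746 and 3000 CPM in 748. The libraries labelled Aire+/+ had 2748 to 3203 CPM of them. The part of these cells in the values of the cell cycle genes was not tested.

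**Figure D5:**
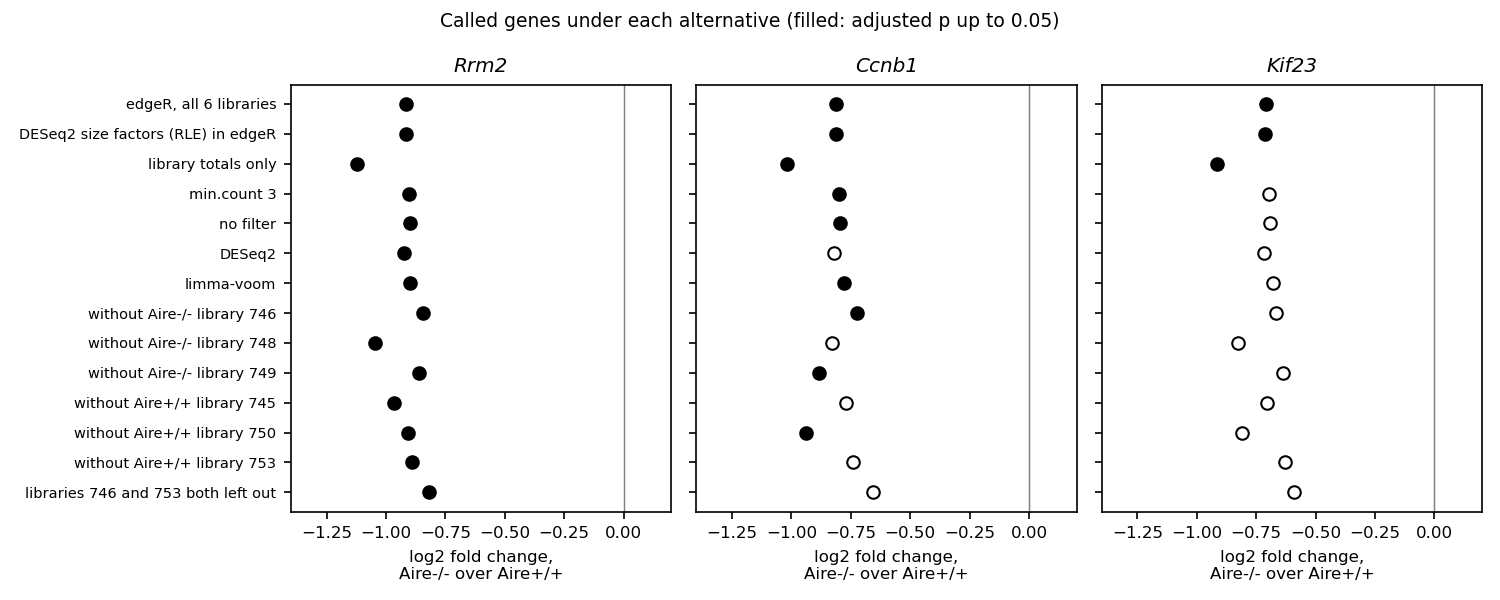
The log2 fold change, Aire-/- over Aire+/+ (x axis), of the 3 called genes with all 6 libraries and under 13 alternatives of scaling, filter, test and libraries (y axis). Filled points have an adjusted p up to 0.05, which holds throughout for Rrm2, in 8 alternatives for Ccnb1 and in 2 for Kif23.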

How the data were processed

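MARS-seq libraries of 6 samples were read from 1 table of the series. Per the file headers it holds raw UMI counts per gene, which are the values tested here. Normalized counts, deposited beside them, are a signal equal to the raw counts over 1 factor per library (checked on the table). The authors' regularized log2 values were not used. The authors' log2 fold changes, p-values and adjusted p-values are quoted only as the authors' deposited table. The build mm10 and the tools STAR 2.4.2a, HTSeq, cutadapt, bcl2fastq and DESeq2 are listed, with no role given, per the submitters' processing notes. Annotation, strand setting and treatment of tags with several matches: not given in the sources used here. No gene in the table has a highest count under 6 UMIs.

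The test of Aire-/- over Aire+/+ used glmQLFit and glmQLFTest of edgeR 4.0.16 in R 4.3.3, TMM scaling, filterByExpr at min.count 10, genotype as the only term, and Benjamini-Hochberg adjustment over all tested genes (threshold 0.05). The standard error is the fold change over the root of F. The procedure was tested on simulated data. Chi-square per degree of freedom between libraries of 1 genotype was 3.02 to 6.83, above sampling noise. Alternatives were DESeq2 1.42.0, limma 3.58.1 (voom), other scalings and filters, and fewer libraries; leaving libraries out of the summed levels was chosen after seeing the data. A count of 3 UMIs, the floor, equals 1.63 to 3.10 CPM in libraries labelled Aire-/- and 0.992 to 1.02 CPM in those labelled Aire+/+. Intervals of pooled ratios and floors cover counting error only.

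The members, lists and tests were chosen with earlier results of these data known. Any member could be named, and of each further list up to 6 tested genes with the smallest p and any called Cdkn, cyclin D, E2F or Rb family gene. Positions are from GENCODE M21, and 3′ ends were searched with blastn 2.17.0. RefSeq promoters matched 28 of 33 members.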

Additional observations from a re-analysis of the deposited data

How the results depend on the processing

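Rrm2 kept its call and direction under every alternative run, whereas the counts moved with scaling, test and libraries. Scaling by library totals gave 6 lower members, against 3, with a median log2 fold change of -0.48, against -0.28. Among all tested genes it gave 2083 lower and 561 higher ones, against 1451 and 1027. The further lists then held 24 lower genes, against 12. DESeq2 gave 1 lower member, 7 lower genes in the lists and 1216 lower genes among all tested. Without libraries 746 and 753 there were 1 lower member and 5 lower genes in the lists. Among all tested genes 1179 were then lower and 651 higher. Leaving out 1 library each gave 1 to 3 lower members and medians of -0.44 to -0.14. Among all tested genes 1099 to 1899 were then lower and 618 to 1156 higher. The lists then held 7 to 13 lower and 4 to 12 higher genes. The summed S phase level became 0.937 of that in Aire+/+ with TMM scaling. The causes were not tested. No member was called higher under any alternative run.

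Genes near no change turned sign. With library totals Aurkb was at -0.11, Birc5 at -0.13, Mcm3 at -0.18 and Mcm5 at -0.19. By limma-voom Mcm3 was at -0.023 and Mcm5 at -0.047. Without 746 and 753 Aurkb was at -0.048, Birc5 at -0.021, Cenpe at 0.22 and Mcm5 at -0.32. Leaving out 1 library gave ranges of -0.027 to 0.23 for Aurkb, -0.015 to 0.16 for Birc5, -0.68 to 0.19 for Cenpe, -0.41 to 0.24 for Mcm3, -0.24 to 0.15 for Mcm5 and -0.18 to 0.011 for Rrm1. No paired analysis was possible because the library numbers differ between the genotypes. At the depth of library 746 a gene of 3 UMIs stands at 3.10 CPM, which limits Bub1, Cenpf, Hmgb2, Tpx2 and Tyms, all under the main filter. With min.count 3 or no filter all 33 members were tested.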
